A study of Rattus norvegicus with 9 samples.

Results

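Adipocytes take up fatty acids, store them as triglyceride in a lipid droplet, release them again by lipolysis, and secrete hormones called adipokines. The 10 genes described here cover these steps and were chosen by name: lipoprotein lipase (Lpl), the fatty acid translocase Cd36 and the fatty acid binding protein Fabp4 for uptake, the perilipins Plin1 and Plin2 for the droplet coat, adipose triglyceride lipase (Pnpla2) and hormone-sensitive lipase (Lipe) for lipolysis, and adiponectin (Adipoq), leptin (Lep), and adipsin (Cfd) among the adipokines. All 10 were found by gene symbol among the 35362 genes of the count table. RNA had been sequenced from adipose-derived stem cells (ASCs) grown to passage 3 from subcutaneous fat of the groin (SASCs), perirenal fat (PASCs), and epididymal fat (EASCs) of male Sprague-Dawley rats aged 6 weeks, with 3 samples in each group. All groups were cultured cells with no adipogenic induction described for the sequenced cultures, and neither a drug treatment of the cells nor a genetic change was given. The rats had been starved and were anesthetized with isoflurane before the cells were isolated. The cells were then kept in high glucose medium with fetal bovine serum. RNA was extracted from single culture wells, and more replicate wells were described for each group than the 3 samples analysed here. Whether the wells of a group, or those of different groups, came from different rats is not given, so the p-values may measure only technical spread. All sample titles begin with sd1, and what this stands for is not explained.

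In a mature adipocyte, Lpl frees fatty acids from circulating lipoproteins, Cd36 carries them across the membrane, and Fabp4 binds them inside the cell. Plin1 coats the large droplet of adipocytes and controls the access of lipases to it, while Plin2 coats the small droplets that most cell types hold. Most of these genes are low in stem cells and rise as adipocytes form, under the nuclear receptor Pparg and the C/EBP factors. Several are also used by macrophages.

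Total counts lay between 17591916 and 30299032 per sample. Levels are given as counts per 1000000 counts (CPM) after TMM scaling, and levels of different genes are compared per length as FPKM. On this scale 3 counts corresponded to between 0.104 and 0.159 CPM, and a gene under that level was not measured reliably. The differences are log2 fold changes from edgeR's quasi-likelihood test over 14770 genes with enough counts, with Benjamini-Hochberg adjusted p-values over all of these genes. Differentially expressed genes (DEGs) were those past a fold of 2 whose adjusted p-value was below 0.05. Of the 10 genes 8 were tested, since Pnpla2 and Lep had too few counts.

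Lpl, Plin1, Fabp4, Lipe, Adipoq, and Cfd were downregulated in both visceral groups compared with SASCs, by between 2.66 and 21.9 times. Plin1 fell furthest in EASCs and Lpl furthest in PASCs. Thus 6 of the 8 tested genes were lower DEGs in EASCs, where 14.2% of all tested genes were lower DEGs, and none was higher, against 13.6% of all tested genes. In PASCs 6 were also lower DEGs, against 14.9% of all tested genes, and none was higher, against 12.0%. At an adjusted p-value under 0.05 with no limit on the fold, 7 differed in EASCs and 8 in PASCs, all lower, against 69.7% and 69.2% of all tested genes in either direction. Plin2, the coat of small droplets, stayed within 1.14-fold among all groups. The median log2 fold change of the 8 genes was −2.47 in EASCs and −1.51 in PASCs, beside 0.01 and −0.01 over all tested genes. Both comparisons use the same SASC samples.

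**Figure D1:**
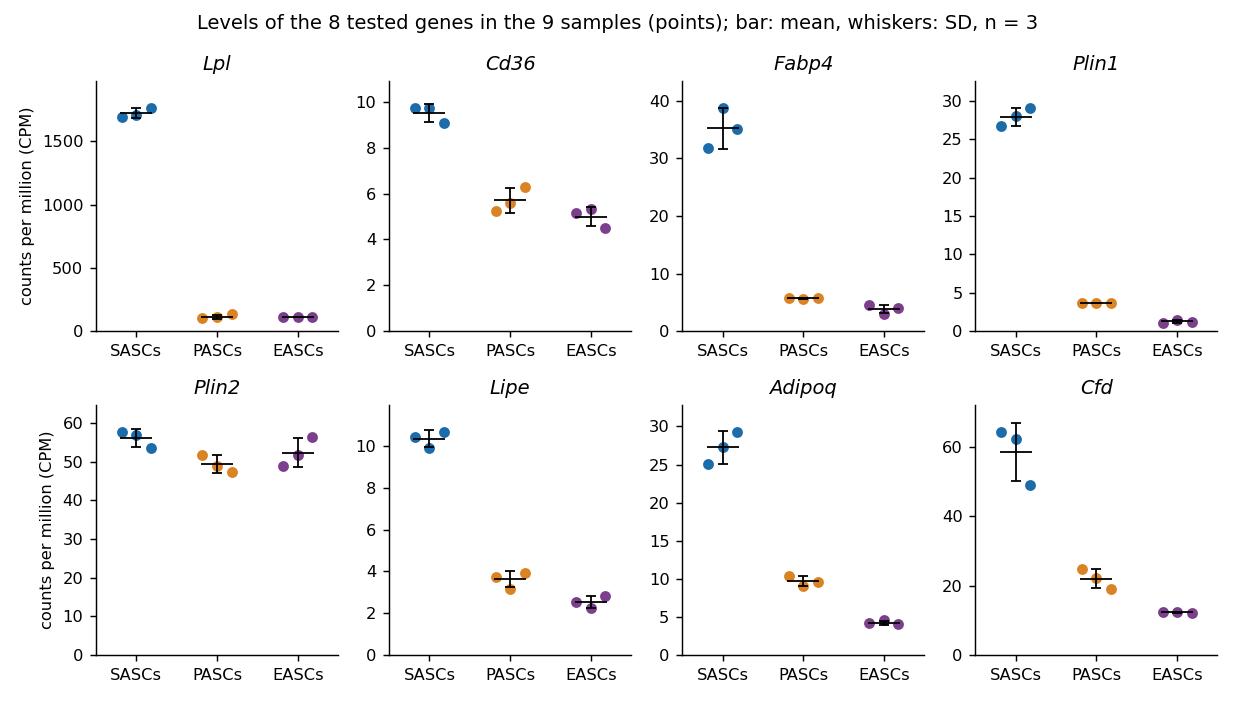
Level in CPM (vertical axis, starting at 0, its range set for each gene) of the 8 tested genes in the 3 SASC, 3 PASC, and 3 EASC samples, shown as points, with the mean and SD of each group. SASC samples lie above all others for 7 genes, whereas the Plin2 samples of SASCs and EASCs overlap.

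Among the uptake genes Lpl (rn6 chr16:22537687-22561487) was by far the most abundant. It reached 1694, 1709, and 1763 CPM in the SASC samples, 102, 111, and 133 CPM in the PASC samples, and 111, 115, and 111 CPM in the EASC samples. All SASC samples were far above all others, and the PASC and EASC samples overlapped. The log2 fold change of Lpl was −3.94 in EASCs (SE 0.0756, adjusted p = 2.13e-25) and −3.90 in PASCs (SE 0.0754, adjusted p = 3.36e-25), which are 15.4 and 15.0 times less. Between EASCs and PASCs its log2 fold change was −0.04, with a 95% confidence interval from −0.18 to 0.10 (adjusted p = 0.729). The sign of this difference changed to 0.07 without PASCs replicate 3, so neither direction was resolved.

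Fabp4 (rn6 chr2:93792666-93797267), the lipid chaperone typical of adipocytes, was likewise highest in SASCs. Its levels were 31.7, 38.8, and 35.2 CPM in SASCs, 5.82, 5.53, and 5.72 CPM in PASCs, and 4.48, 3.04, and 3.98 CPM in EASCs. No sample of any group overlapped another group. The log2 fold change was −3.20 in EASCs (SE 0.123, adjusted p = 1.07e-18) and −2.63 in PASCs (SE 0.116, adjusted p = 2.71e-17), and EASCs were 1.49 times lower than PASCs (adjusted p = 0.00278).

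Cd36 (rn6 chr4:14150309-14191498) differed far less than its partners in uptake. It was measured at 9.73, 9.72, and 9.08 CPM in SASCs, at 5.24, 5.57, and 6.30 CPM in PASCs, and at 5.15, 5.31, and 4.52 CPM in EASCs. SASC samples were all above the rest, but neither difference reached a fold of 2. EASCs were 1.90 times lower (log2 fold change −0.93, SE 0.136, adjusted p = 9.56e-07) and PASCs 1.68 times lower (−0.75, SE 0.134, adjusted p = 1.99e-05). Without TMM scaling both passed it, with log2 fold changes of −1.32 in EASCs and −1.07 in PASCs (adjusted p = 1.36e-09 and 9.96e-07), while the medians of all tested genes moved to −0.39 and −0.33. Per length, Lpl to Cd36 stood at 153 ± 9.39 (SD, n = 3) in SASCs, 17.0 ± 0.702 in PASCs, and 19.0 ± 1.42 in EASCs. EASCs and PASCs overlapped in Cd36, with a log2 fold change of −0.18 and a 95% confidence interval from −0.48 to 0.11 (adjusted p = 0.367).

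In the droplet coat, Plin1 (rn6 chr1:141458993-141471096) showed the largest fall of the 8 genes in EASCs, whereas Lpl fell further in PASCs. With limma on log2(FPKM + 1) Lpl also fell further in EASCs, at −3.91 against −3.08 for Plin1. Its SASC samples stood at 26.7, 28.0, and 29.1 CPM, its PASC samples at 3.63, 3.70, and 3.65 CPM, and its EASC samples at 1.13, 1.42, and 1.25 CPM. The groups formed 3 separate steps, with a spread within each group that was small beside the steps. Plin1 changed by −4.45 on the log2 scale in EASCs (SE 0.136, adjusted p = 6.03e-21), or 21.9 times, and of −2.93 in PASCs (SE 0.115, adjusted p = 1.97e-18), or 7.61 times. It was also a DEG between the visceral depots, 2.88 times lower in EASCs than in PASCs (log2 fold change −1.53, SE 0.168, adjusted p = 3.68e-08).

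Plin2 (rn6 chr5:104984413-105010853) did not follow Plin1. Its levels were 57.8, 56.9, and 53.4 CPM in SASCs, 51.8, 48.9, and 47.2 CPM in PASCs, and 48.9, 51.7, and 56.3 CPM in EASCs. The EASC samples overlapped both other groups. Against SASCs the log2 fold change in EASCs was −0.10, with a 95% confidence interval from −0.24 to 0.03 (adjusted p = 0.176), so a change of 2-fold was outside the interval. Without TMM scaling, where the median of all tested genes moved to −0.39, Plin2 was at −0.50 in EASCs (adjusted p = 0.00444). PASCs were 1.14 times lower than SASCs (log2 fold change −0.18, SE 0.0663, adjusted p = 0.0160), a call that was lost without SASCs replicate 1, PASCs replicate 2, or PASCs replicate 3, with adjusted p between 0.0527 and 0.0648.

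The balance of the perilipins differed between depots. Per length, and within each sample so that library scaling plays no part, Plin2 to Plin1 stood at a ratio of 1.92 ± 0.157 (SD, n = 3) for SASCs, 12.8 ± 0.660 for PASCs, and 39.7 ± 4.29 for EASCs. The ranges of the ratio, 1.75 to 2.06, 12.3 to 13.6, and 34.8 to 42.9, did not overlap. Plin3, the other perilipin found in most cell types, was at 105 ± 7.34, 115 ± 7.26, and 112 ± 2.17 CPM (SD, n = 3) in SASCs, PASCs, and EASCs. Plin2 to Plin3, a ratio added after the data had been seen, differed less but also without overlap, from 0.424 to 0.450 for SASCs, 0.364 to 0.408 for EASCs, and 0.344 to 0.356 for PASCs. Plin4, an adipocyte perilipin, was a lower DEG in EASCs (log2 fold change −2.76, adjusted p = 5.97e-16) and PASCs (−1.64, adjusted p = 5.07e-12). Plin5, the perilipin of oxidative tissue, had at most 1 count in any sample.

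**Figure D2:**
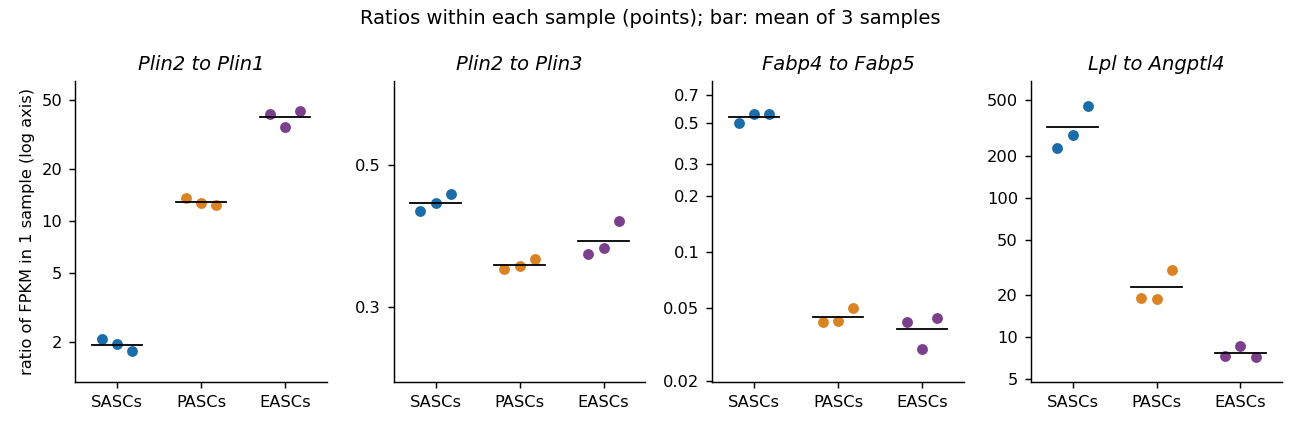
Ratio of FPKM of a pair of genes within each sample (log axes, with a different range for each pair) for SASCs, PASCs, and EASCs, with the mean of the 3 samples as a bar. Plin2 to Plin1 climbs from about 1.92 in SASCs to 39.7 in EASCs, Plin2 to Plin3 lies between 0.344 and 0.450 throughout, and Fabp4 to Fabp5 and Lpl to Angptl4 are highest in SASCs.

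Of the lipases, Lipe (rn6 chr1:82248031-82266727), which cuts diglycerides under hormonal control, fell in both visceral groups. It was counted at 10.4, 9.89, and 10.7 CPM in SASCs, 3.75, 3.18, and 3.92 CPM in PASCs, and 2.51, 2.23, and 2.82 CPM in EASCs. No sample overlapped another group. The log2 fold change was −2.04 in EASCs (SE 0.158, adjusted p = 6.24e-12) and −1.52 in PASCs (SE 0.150, adjusted p = 8.97e-10). EASCs were 1.43 times lower than PASCs (adjusted p = 0.0246), but this call was lost without PASCs replicate 1, PASCs replicate 3, EASCs replicate 1, or EASCs replicate 2, with adjusted p between 0.0526 and 0.107. With limma on log2(FPKM + 1) Lipe did not reach a fold of 2 against SASCs (−0.89 in EASCs and −0.72 in PASCs). Lipe overlaps the locus LOC102549501 on the opposite strand, which had 6 to 21 counts per sample.

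Pnpla2 (rn6 chr1:214434638-214439720), the lipase that takes the first fatty acid from triglyceride, was listed at 0 counts in 8 samples and at 1 count in PASCs replicate 1. This value cannot be read as a level. Pnpla2 lies in a stretch of 11 genes, chr1:214389047-214511558, that the table lists a second time in the same order at chr1:213952109-214074652 under other identifiers. All 11 genes had between 0 and 36 counts over the 9 samples together, and 5 had none. Among them, the ribosomal protein gene Rplp2 had 1 count, whereas the related Rplp0 and Rplp1 had at least 25858 and 8420 counts in every sample. Taldo1 and Ap2a2 on either side had 14301 and 64589. The second listings of Rplp2 and Pnpla2 (LOC100911615) held 2723 and 55 counts, whereas that of Cend1 had none and that of Slc25a22 had 2, below the 14 of the gene itself. For the second listing of Pnpla2 the counts were 13, 16, and 7 in SASCs, 5, 1, and 5 in the PASC samples, and 2, 6, and 0 in the EASC samples. How reads matching both stretches were counted is not given in the sources used here, so the level of Pnpla2 and its difference between depots were not determined. The pairs of genes were matched by their descriptions after these values had been seen.

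**Figure D3:**
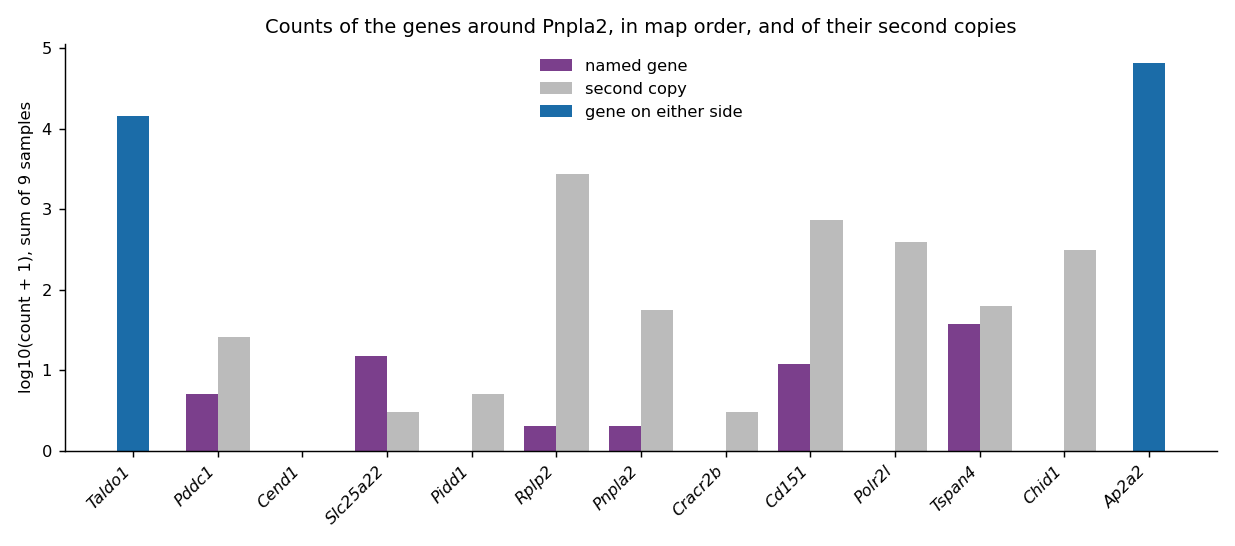
Sum of counts over the 9 samples, as log10(count + 1), for the 11 genes around Pnpla2 in map order, for the second listing of each, and for Taldo1 and Ap2a2 on either side. The named genes all stay at or below 36 counts, while Taldo1 and Ap2a2 reach 14301 and 64589 and the second listing of Rplp2 reaches 2723.

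Adipoq (rn6 chr11:81330845-81344488), the most adipocyte-specific of the hormones here, was lower in each visceral group. Its levels were 25.1, 27.3, and 29.3 CPM in SASCs, 10.3, 9.08, and 9.64 CPM in PASCs, and 4.19, 4.54, and 4.03 CPM in EASCs. As for Plin1, the 3 groups were fully apart and in the order SASCs, PASCs, EASCs. Its log2 fold change was −2.67 in EASCs (SE 0.112, adjusted p = 8.33e-18) and −1.49 in PASCs (SE 0.101, adjusted p = 3.75e-13). It was the other DEG between the visceral depots, 2.27 times lower in EASCs (log2 fold change −1.19, SE 0.121, adjusted p = 8.65e-09).

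Cfd (rn6 chr7:12634216-12635939), the complement factor D secreted by adipocytes, varied most among the SASC samples. It stood at 64.4, 62.3, and 48.9 CPM in SASCs, 24.7, 22.1, and 19.1 CPM in PASCs, and 12.3, 12.4, and 12.0 CPM in EASCs. The third SASC sample was lower than the other two, yet it was still well above all PASC and EASC samples. The log2 fold change was −2.26 in EASCs (SE 0.101, adjusted p = 3.13e-17) and −1.41 in PASCs (SE 0.0943, adjusted p = 2.74e-13), and EASCs were 1.80 times lower than PASCs (adjusted p = 2.95e-07). Cfd lies within the span of Hmha1 on the same strand, which had 12 to 95 counts per sample.

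Lep (rn6 chr4:56337695-56351818), the satiety hormone of mature adipocytes, was barely counted. It had 2, 2, and 0 counts in SASCs, 0, 6, and 0 in the PASC samples, and 6, 2, and 6 in the EASC samples. At this depth no difference between depots could be measured. None of the 10 genes other than Lipe and Cfd overlapped another gene of the table.

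**Figure D4:**
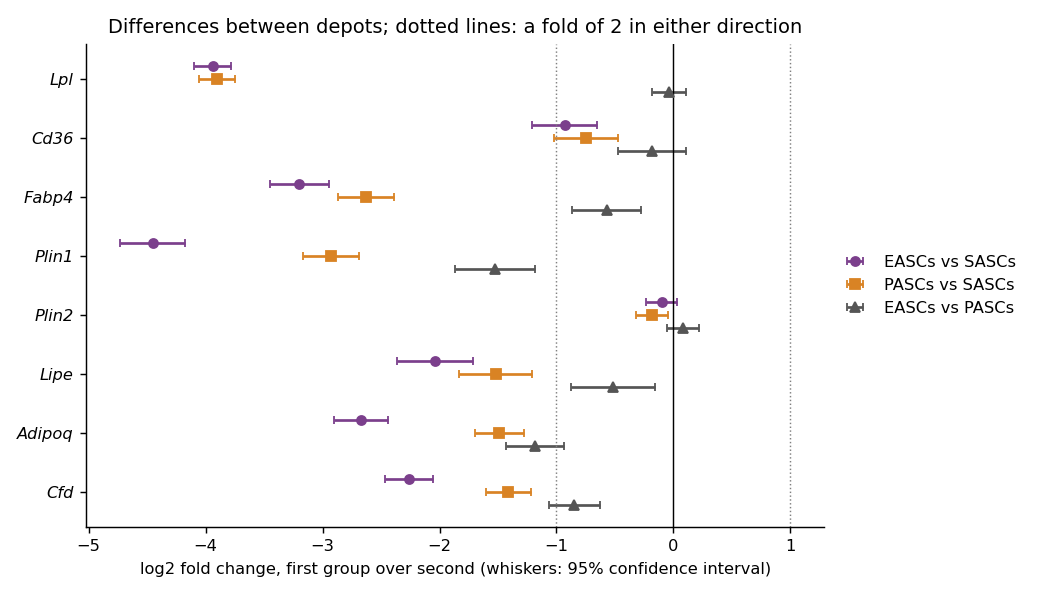
Log2 fold change of the 8 tested genes (horizontal axis) for EASCs vs SASCs, PASCs vs SASCs, and EASCs vs PASCs. Whiskers are 95% confidence intervals derived from the SE, and dotted lines mark a fold of 2. Plin2 lies near 0 and Cd36 near −1 or above, while the other genes reach from −1.41 to −4.45 against SASCs.

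Between the visceral depots the differences were smaller. Plin1 and Adipoq were lower DEGs in EASCs, 2 of 8 tested genes, where 2.2% of all tested genes were lower DEGs, and none was higher, against 5.19% of all tested genes. Fabp4, Lipe, and Cfd were also lower at an adjusted p-value under 0.05, which made 5 of 8 against 30.7% of all tested genes in either direction. The samples of EASCs lay wholly below those of PASCs for these 5 genes, against 41.2% of all tested genes without overlap in either direction. For comparison, SASC samples lay wholly above EASC samples for 7 of the 8 genes and above PASC samples for all 8, whereas 72.1% and 71.6% of all tested genes did not overlap. With limma on log2(FPKM + 1), which shrinks the folds of genes with low levels, neither Plin1 nor Adipoq reached a fold of 2.

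Per length, the order of the genes changed with the depot. In SASCs the levels ran from Lpl at 568 ± 12.0 FPKM (SD, n = 3) through Cfd at 70.0 ± 10.1, Fabp4 at 62.5 ± 6.26, Plin2 at 23.0 ± 0.949, Adipoq at 18.3 ± 1.43, Plin1 at 12.0 ± 0.508, and Cd36 at 3.73 ± 0.147 to Lipe at 1.54 ± 0.0609. Neighbours in this order were apart in all SASC samples except Cfd and Fabp4, which overlapped. In EASCs Lpl was still first at 37.0 ± 0.853 FPKM, but Plin2 came next at 21.5 ± 1.55, ahead of Cfd at 14.7 ± 0.230 and Fabp4 at 6.80 ± 1.30. Plin1, at 0.546 ± 0.0623 FPKM, lay below Cd36 at 1.96 ± 0.164. The summed level of the genes, to which Pnpla2 added next to nothing because its level was not determined, was 759 ± 8.50 FPKM in SASCs, 106 ± 2.07 in PASCs, and 85.7 ± 0.822 in EASCs. Lpl made up 74.8% of that sum in SASCs but 36.0% in PASCs and 43.1% in EASCs, and Plin2 made up 3.03% in SASCs, 19.2% in PASCs, and 25.1% in EASCs.

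The promoter windows of the droplet genes and of Adipoq are shown as examples of genes that moved together over the 9 samples, Plin1 and Adipoq, and of one that moved less with them, Plin2. Pearson's r of log2 CPM was 0.991 for Plin1 with Adipoq, 0.527 for Plin1 with Plin2, and 0.443 for Plin2 with Adipoq. The first value was not particular to this pair, since Plin1 stood at 0.986 with Cfd, 0.985 with Lipe, and 0.976 with Fabp4, and Adipoq at 0.981 with Cfd. These values describe 9 samples that share 3 depots. RefSeq sequences on GRCr8, from 250 bases before to 50 bases after each annotated start, were found for 7 of the 10 genes, in 8 windows. Capitals mark CCAAT boxes (CCAAT, or ATTGG on the other strand), the C/EBP-type motif TTNNGCAA (or TTGCNNAA), and the E-box CACGTG, which do not overlap one another here.
Plin1 (chr1:143086099-143086398, minus strand): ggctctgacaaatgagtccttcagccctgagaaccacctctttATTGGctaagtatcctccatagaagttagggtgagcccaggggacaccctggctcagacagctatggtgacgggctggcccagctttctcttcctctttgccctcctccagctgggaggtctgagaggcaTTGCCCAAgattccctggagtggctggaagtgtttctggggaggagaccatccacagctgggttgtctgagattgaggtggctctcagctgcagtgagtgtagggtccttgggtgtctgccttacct
Adipoq (chr11:91240120-91240419, minus strand): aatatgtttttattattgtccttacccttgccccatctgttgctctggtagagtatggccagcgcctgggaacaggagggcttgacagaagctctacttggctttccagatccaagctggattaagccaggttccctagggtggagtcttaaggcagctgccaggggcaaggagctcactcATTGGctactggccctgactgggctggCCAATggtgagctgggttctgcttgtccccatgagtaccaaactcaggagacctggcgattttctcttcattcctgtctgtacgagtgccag
Plin2 (chr5:106228969-106229268, minus strand): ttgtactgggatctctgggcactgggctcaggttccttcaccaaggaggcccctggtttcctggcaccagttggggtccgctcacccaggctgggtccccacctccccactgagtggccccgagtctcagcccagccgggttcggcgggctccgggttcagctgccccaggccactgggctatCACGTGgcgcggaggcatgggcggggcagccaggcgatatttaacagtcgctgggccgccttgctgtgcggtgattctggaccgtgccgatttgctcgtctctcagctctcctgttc

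The C/EBP-type motif began 77 bases upstream of the Plin1 start and 69 bases upstream of the Lep start, and 10.6% of all 33469 promoter windows held it. CCAAT boxes, present in 37.5% of windows, began 69 and 42 bases upstream of the Adipoq start and 207 bases upstream of the Plin1 start, and also 104 bases upstream of the Lep start and at base 33 counted from the start in the other Plin2 window, which is not printed. They were thus in 4 of the 8 windows, Plin2 included. The window of Cfd, not printed, held neither a CCAAT box nor the C/EBP-type motif. The Plin2 window printed above held the E-box 67 bases upstream, as 6.42% of windows did. AGGTCA, the half-site of nuclear receptors such as Pparg, was in none of the 8 windows and in 16.2% of all windows, on either strand. A match is only a run of letters, and a window without one says nothing about the factor.

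The wider pathway was described with 9 lists written for these steps, which held 158 gene names. Some names were synonyms, such as Cavin1 for Ptrf, so a name not in the table need not be a missing gene. Of these names, 149 were in the table and 120 were tested, the 10 genes above not included. Plin4, Cidec, Gpd1, and Retn stand in the list of other mature adipocyte genes and in 1 earlier list each, and were counted once in the totals. In EASCs 9 were higher and 50 lower DEGs compared with SASCs, where 13.6% of all tested genes were higher and 14.2% lower. In PASCs 5 were higher and 45 lower, against 12.0% and 14.9% of all tested genes. Between EASCs and PASCs 11 were higher and 10 lower, against 5.19% and 2.2%. Without TMM scaling 5 were higher and 62 lower in EASCs and 2 were higher and 55 lower in PASCs, compared with SASCs. All tested genes shifted toward lower under that setting too, to 9.13% higher and 23.2% lower in EASCs and 8.54% and 21.5% in PASCs. With TMM, the median log2 fold changes of the pathway genes were −0.67, −0.55, and −0.07, beside 0.01, −0.01, and −0.01 over all tested genes. The shares with TMM are the background for the counts of each list, since a count near them says nothing particular about a list.

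**Figure D5:**
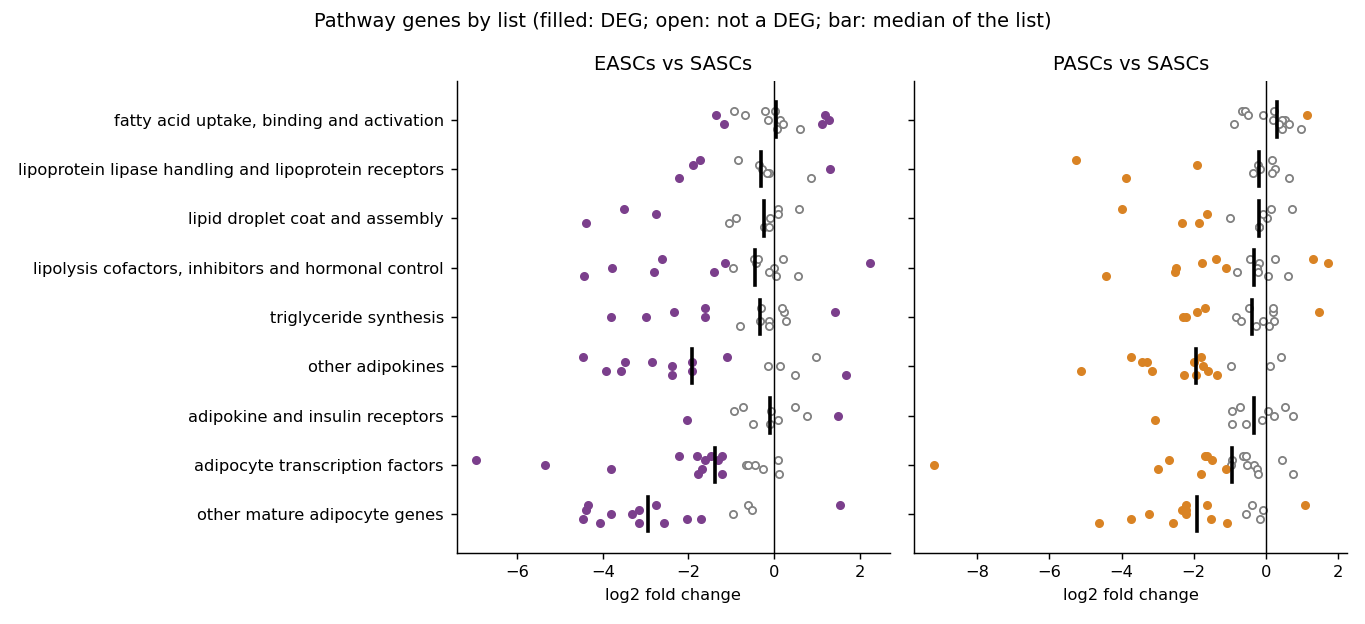
Log2 fold change (horizontal axis) of each tested gene of 9 pathway lists (rows) for EASCs vs SASCs and PASCs vs SASCs, with DEGs filled and the median of each list as a bar. The medians of the lists of other mature adipocyte genes and other adipokines lie at −2.95 and −1.93 in EASCs, and those of fatty acid uptake at 0.04. The values farthest to the left are fitted folds of Zbtb16 and Mlxipl, which had 0 counts in all samples of a group, and give no size.

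In the list of fatty acid uptake, binding, and activation, 3 of 14 tested genes were higher and 2 lower DEGs in EASCs. The shares of all tested genes were 13.6% and 14.2%. In PASCs 1 was higher and none lower, against 12.0% and 14.9%. The lower count in EASCs was near the 14.2% of all tested genes, and the median log2 fold change of the list was 0.04 in EASCs and 0.30 in PASCs. Fabp5, a related binding protein of macrophages and skin, was at 81.4 ± 4.24 CPM (SD, n = 3) in SASCs, 159 ± 15.0 in PASCs, and 124 ± 10.3 in EASCs. It was thus 1.96 times higher in PASCs (adjusted p = 9.39e-13) while Fabp4 fell. Per length, Fabp4 to Fabp5 went from 0.537 ± 0.0364 in SASCs to 0.0447 ± 0.00437 in PASCs and 0.0385 ± 0.00762 in EASCs. The fatty acid transporter Slc27a4 rose in EASCs, by 1.28 on the log2 scale (adjusted p = 3.13e-14), and Ptrf, which builds caveolae, rose by 1.18 (adjusted p = 1.73e-16). Acsl3 and Acsl5, which activate fatty acids with coenzyme A, fell in EASCs, with log2 fold changes of −1.35 and −1.16 (adjusted p = 1.98e-15 and 2.30e-16).

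Lpl depends on partners outside the cell that makes it. In its list, 1 of 10 tested genes was a higher and 3 were lower DEGs in EASCs, against 13.6% and 14.2% of all tested genes. In PASCs none was higher and 3 were lower, against 12.0% and 14.9%. The higher count in EASCs was near its share. Gpihbp1, which carries Lpl to the vessel wall, had 117, 74, and 58 counts in SASCs, 6, 0, and 0 in the PASC samples, and 23, 18, and 30 in the EASC samples, and was a lower DEG in both visceral groups. Angptl4, which inactivates Lpl, had 130, 87, and 48 counts in SASCs, 85, 96, and 50 in the PASC samples, and 221, 199, and 210 in the EASC samples. It was the higher DEG of this list in EASCs (log2 fold change 1.31 against SASCs, adjusted p = 3.81e-07, and 1.48 against PASCs, adjusted p = 3.26e-07). Lpl to Angptl4, per length, thus went from 323 ± 120 (SD, n = 3) in SASCs to 22.8 ± 6.70 in PASCs and 7.71 ± 0.847 in EASCs. Lmf1, which folds the lipase, was at 15.3 ± 1.10 CPM in SASCs, 13.3 ± 0.494 in PASCs, and 12.0 ± 0.732 in EASCs. Apoe and the receptor Lrp1 fell in both groups, with log2 fold changes of −2.22 in EASCs and −3.87 in PASCs for Apoe and of −1.90 and −1.91 for Lrp1 (adjusted p between 4.16e-26 and 1.23e-17).

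Among droplet proteins, none of 11 tested genes was a higher DEG, where 13.6% of all tested genes were higher in EASCs and 12.0% in PASCs. In EASCs 3 and in PASCs 4 were lower DEGs, against 14.2% and 14.9% of all tested genes. Cidec, which fuses droplets, had 99, 39, and 47 counts in SASCs, 12, 14, and 9 in the PASC samples, and 2, 4, and 2 in the EASC samples. Mest, linked to fat expansion, had log2 fold changes of −3.52 in EASCs and −3.99 in PASCs (adjusted p = 1.25e-19 and 2.54e-20). Hsd17b13, with 31 counts at most, was a lower DEG in PASCs.

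Around the lipases, 1 of 16 tested genes was a higher and 6 were lower DEGs in EASCs, against 13.6% and 14.2% of all tested genes. In PASCs 2 were higher and 6 lower, against 12.0% and 14.9%. The higher count in PASCs was near its share. Abhd5, the activator of Pnpla2, was at 89.5 ± 5.21 CPM (SD, n = 3) in SASCs, 66.7 ± 5.18 in PASCs, and 64.6 ± 3.57 in EASCs, and its inhibitor G0s2 at 63.7 ± 5.89, 56.5 ± 2.20, and 48.0 ± 1.20 CPM. Neither reached a fold of 2, though both were lower in each visceral group (adjusted p between 3.78e-07 and 0.0218). Mgll, which ends lipolysis by cutting monoglycerides, stood at 17.2 ± 0.596, 7.98 ± 0.441, and 17.2 ± 2.01 CPM. It was a lower DEG in PASCs compared with SASCs and a higher DEG in EASCs compared with PASCs, and EASCs and SASCs overlapped in level. The clearance receptor of natriuretic peptides, Npr3, fell to log2 fold changes of −4.44 in EASCs and −4.43 in PASCs (adjusted p = 6.62e-25 and 9.67e-25), and the lipase Pnpla3 to −2.81 and −2.52. Adora1 and the glycerol channel Aqp7 were lower DEGs at 20 counts or fewer per sample.

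In triglyceride synthesis, 5 of 14 tested genes were lower DEGs in EASCs and 4 in PASCs, against 14.2% and 14.9% of all tested genes. In each group 1 was higher, against 13.6% in EASCs and 12.0% in PASCs. Gpd1, which supplies glycerol phosphate, had log2 fold changes of −3.80 in EASCs and −2.20 in PASCs, and was 3.03 times lower in EASCs than in PASCs. The same values were −2.99 and −2.29 for Lpin1, −2.33 and −1.90 for Dgat2, the last enzyme of the path, and −1.61 and −1.67 for Gpam, its first. All of these were DEGs in both groups.

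Most other adipokines were lower in the visceral groups as well. Of 15 tested, 10 were lower and 1 was a higher DEG in EASCs, against 14.2% and 13.6% of all tested genes. In PASCs 12 were lower and none higher, against 14.9% and 12.0%. In EASCs and PASCs resistin (Retn) had log2 fold changes of −4.45 and −3.74, chemerin (Rarres2) of −3.58 and −5.12, and Dpp4 of −3.93 and −3.15. Between the visceral groups Rarres2 was the reverse of Adipoq, with a log2 fold change of 1.54 in EASCs over PASCs (adjusted p = 7.71e-14). Lcn2, with 40 counts at most, was the higher DEG in EASCs.

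Among the receptors, 1 of 10 tested genes was a higher and 1 a lower DEG in EASCs, and 1 was lower in PASCs, which is no more than the 13.6%, 14.2%, and 14.9% of all tested genes. Adipor1 was at 115 ± 0.638 CPM (SD, n = 3) in SASCs, 167 ± 3.72 in PASCs, and 161 ± 0.523 in EASCs, Adipor2 at 122 ± 6.10, 128 ± 5.37, and 116 ± 7.50, and Cdh13, which also binds adiponectin, at 18.1 ± 0.783, 30.7 ± 0.447, and 30.9 ± 1.54. Adipor1 and Cdh13 were higher in both visceral groups at under 2-fold (adjusted p between 3.23e-10 and 2.03e-09), where Adipoq itself was lower. The leptin receptor Lepr was at 2.32 ± 0.0219, 2.14 ± 0.414, and 2.49 ± 0.543 CPM. The chemerin receptor Cmklr1 rose in EASCs (log2 fold change 1.48), and the apelin receptor Aplnr fell in EASCs (−2.04) and PASCs (−3.07).

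Of the 18 transcription factors, all tested, 12 were lower DEGs in EASCs and 8 in PASCs, against 14.2% and 14.9% of all tested genes. None was higher in either group, against 13.6% in EASCs and 12.0% in PASCs. Pparg was at 13.1 ± 1.47 CPM (SD, n = 3) in SASCs, 4.13 ± 0.556 in PASCs, and 2.80 ± 0.355 in EASCs, with log2 fold changes of −2.23 in EASCs and −1.67 in PASCs (adjusted p = 5.69e-13 and 7.80e-11). Cebpa fell as well, with −1.61 and −1.49 (adjusted p = 1.67e-16 and 8.26e-16). Cebpb, an early factor, was at 117 ± 6.73, 94.2 ± 20.9, and 74.8 ± 22.5 CPM and reached no fold of 2. Zbtb16 had 79, 57, and 85 counts in SASCs, none in PASCs, and 4, 0, and 1 in EASCs, and Mlxipl had 19, 16, and 12 in SASCs, 7, 0, and 0 in PASCs, and none in EASCs. Ppargc1a had at least 29 counts in each SASC sample and at most 11 in the others.

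Among further genes of mature adipocytes, 4 of which also stand in lists above, 12 of 16 tested were lower DEGs in EASCs and 11 in PASCs. The shares of all tested genes were 14.2% and 14.9%. In each group 1 was higher, against 13.6% in EASCs and 12.0% in PASCs. Car3, an abundant adipocyte enzyme, had log2 fold changes of −4.34 in EASCs and −2.20 in PASCs, and the amino acid transporter Slc7a10 of −3.15 and −4.63. The higher DEG in both was malic enzyme (Me1), which makes NADPH, with 1.53 in EASCs and 1.08 in PASCs.

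Genes with the most similar pattern were found by Pearson's r of log2 CPM over the 9 samples among 12774 genes with a mean of at least 1 CPM. They were Il6st for Lpl (r = 0.999), Tbce for Cd36 (0.994), Stambpl1 for Fabp4 (0.998), Gja1 for Plin1 (0.999), Gng8 for Lipe (0.997), Chst15 for Adipoq (0.998), and Pc for Cfd (0.995), followed by Elfn2, Phkb, LOC103692310, Ppl, Dnm1, Fads1, and Ddt in the same order. Elfn2 was at 0 in all PASC and EASC samples, so its likeness to Lpl is a single step at the floor of the counts. For Plin2 the closest were Lpcat1 (0.953) and LOC682865 (0.948). Such an r describes these samples alone.

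Markers of other cells moved with the depots as well, and their counts of DEGs stand beside the same shares of all tested genes, 13.6% higher and 14.2% lower in EASCs and 12.0% and 14.9% in PASCs. The 16 macrophage and leukocyte markers in the table had summed levels of 101 to 111 CPM among SASC samples, 161 to 163 among PASC samples, and 292 to 299 among EASC samples. Of 14 tested, 12 were higher DEGs in EASCs, 6 were higher and 1 lower in PASCs, and Cd3e was at 0 counts in all samples. Macrophages also use Lpl, Cd36, Fabp4, and Plin2. Ptprc was at 22 to 77 counts per sample, and Csf1r at 78 to 404. The 10 mesothelial markers summed to 20.1 to 21.7, 99.2 to 106, and 132 to 144 CPM in the same order, with 7 of 8 tested genes higher DEGs in EASCs and 8 in PASCs, Msln from 261 to 981 counts and Upk3b from 0 to 74. The 12 endothelial markers summed to 102 to 107, 60.9 to 67.2, and 116 to 126 CPM in the same order. Of 11 tested, 2 were higher and 1 lower DEGs in EASCs, and 1 was higher and 8 lower in PASCs. Pecam1 had from 13 to 337 and Cdh5 from 16 to 237 counts. Flt1, the most abundant over all samples, averaged 13.6 CPM in SASCs, 19.3 in PASCs, and 55.7 in EASCs. The median log2 fold change of this list was −0.50 in EASCs and −2.35 in PASCs. Smooth muscle and mural markers summed to 269 to 281, 2926 to 3219, and 6474 to 6829 CPM, with 7 of 11 genes higher DEGs in EASCs and 6 in PASCs, and Acta2 from 1150 to 54414 counts. Tagln and Acta2 led this sum, while Notch3, Kcnj8, Abcc9, and Rgs5, the 4 others called, were lower DEGs in both groups. The genes named in this paragraph beside the defining markers were chosen after their values were seen. The 14 mesenchymal stem cell markers were all counted, from 197 for the lowest upward. Their sum, in which Col1a1 was the most abundant in every group, lay between 30766 and 37078 CPM, but Pdgfra, Dcn, and Lum were lower DEGs in both visceral groups and Vcam1 in PASCs, and Eng and Itgb1 were higher DEGs in EASCs, which made 2 higher and 3 lower in EASCs and 4 lower in PASCs. The part of these cells in the differences of the 10 genes was not tested, and fewer cells that express a gene cannot be told apart from less RNA per cell.

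Ribosomal RNA genes took 13.6 ± 2.81% of counts (SD, n = 3) in SASCs, 27.6 ± 5.28% in PASCs, and 28.5 ± 12.2% in EASCs. Without them the same numbers of the 10 genes were DEGs, 6, 6, and 2 in the 3 comparisons.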

How the data were processed

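ASCs of 3 depots, 3 samples each, were compared at passage 3. The authors trimmed paired-end reads with cutadapt and FastX-Toolkit, aligned them with TopHat to rn6, and deposited raw counts per gene, the unit of the values used here. The labels list rn5, but the table's sequence names are those of rn6. The counting tool, the use of strand, and the handling of reads with several matches are not given in the sources used here. The 10 genes and all gene lists were chosen with earlier results of these data known, so their direction is no independent evidence.

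Counts were fitted with edgeR 4.0.16 in R 4.3.3 (TMM, filterByExpr, quasi-likelihood test, all 9 samples, no block). TMM factors lay between 0.740 and 1.23, and the common biological coefficient of variation was 0.0685. SE is the log2 fold change over the root of F. CPM and FPKM used TMM-scaled totals and the gene lengths of the table. Besides the 10 genes, the text names from each list up to 4 DEGs with the largest change, and partners chosen for their role. Same-numbered samples did not deviate together (correlations from −0.03 to 0.04), so numbers were not used as pairs. Alternatives were DESeq2 1.42.0, total counts without TMM, no rRNA genes, no filter, only the groups compared, a replicate block, limma 3.58.1 on log2(FPKM + 1) (pseudocount 1), and leaving out each sample. The test was checked on simulated counts.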

Additional observations from a re-analysis of the deposited data

How the results depend on the processing

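The 6, 6, and 2 of the 10 genes that were DEGs in EASCs vs SASCs, PASCs vs SASCs, and EASCs vs PASCs became 5, 5, and 0 with limma on log2(FPKM + 1), which lost Lipe against SASCs and Plin1 and Adipoq (−0.74 and −0.96) between the visceral groups, and 7, 8, and 5 at an adjusted p-value under 0.05 with no limit on the fold. The pathway genes called, 59, 50, and 21, became 94, 102, and 65 with no limit on the fold, and 10 in EASCs vs PASCs with limma. The higher ones against SASCs, 9 in EASCs and 5 in PASCs, became 5 and 2 without TMM and 6 and 3 with limma. Without TMM the median of all genes shifted to −0.39 and −0.33 in EASCs and PASCs vs SASCs, where Plin2 was at −0.50 in EASCs (adjusted p = 0.00444 by edgeR) and 7 of the 10 genes, Cd36 added, were DEGs in each. The pseudocount of limma shrinks the folds of low genes, and the cause of the other moves was not tested. With a replicate block the numbers of DEGs were 6, 6, and 2 of the 10 genes and 59, 49, and 21 pathway genes. Leaving out 1 sample kept 6, 6, and 2 throughout, and moved the log2 fold change of Lpl in EASCs vs PASCs between −0.12 and 0.07, the last without PASCs replicate 3 (0.0748). Lipe in EASCs vs PASCs missed the threshold by edgeR without TMM (adjusted p = 0.0652) or with only those groups fitted (0.0633), and with limma (0.0678). Over all alternatives 96 total numbers of DEGs, both directions together, stayed within 1.5 times and 372 log2 fold changes kept their direction and their side of an adjusted p-value of 0.05, some of them crossing a fold of 2. Genes with few counts, such as Lep, could not be compared at this depth, and the 3 samples of each group limit every interval.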
